A study of Mus musculus with 5 samples.

Results

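The cells described here are 948 alpha cells of Gcgr homozygous knockout mouse islets, the authors' cluster 2.1, in which Slc38a5 transcripts were abundant. They were chosen by 2 columns of the homozygous islet table, the cell type that the authors assigned (alpha, by Gcg) and their graph-based cluster number, rounded to 1 decimal. They made up 33.3% of the 2844 cells of that library and 62.1% of its 1526 alpha cells, and the whole series held 6645 cells. All cells of cluster 2.1 were typed as alpha cells. The other 578 alpha cells of the library lay in cluster 2.2 (563 cells) and cluster 2.6 (15 cells). The 1318 remaining cells were typed as beta (461), delta (332), endothelial (214), pancreatic polypeptide or PP (151), stellate (74) and a type without a name (86).

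The series profiled single islet and tumor cells with droplet-based 3′ RNA sequencing, in which each captured transcript is counted once by a unique molecular identifier (UMI). The groups used here were homozygous Gcgr knockout islets (1 library), tumors of homozygous Gcgr knockout mice (3 libraries, called A, B and C here) and heterozygous Gcgr knockout islets (1 library, of which the 308 alpha cells were used). All of these animals carried at least 1 knocked-out Gcgr allele, the heterozygous ones included, and received no treatment. Strain, age, number of animals per islet library and any other allele are not given in the labels. With 1 library for each islet genotype, differences between the genotypes and between the libraries cannot be told apart, and no test was made. Intervals cover counting error only.

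Glucagon, made by alpha cells from the Gcg precursor, acts on its receptor GCGR in the liver and drives the breakdown of amino acids there. When this signal is lost, amino acids build up in blood, and alpha cells multiply in response. SLC38A5 carries glutamine and some related amino acids into cells and appears in mouse alpha cells in this setting. The title of the series asks about tumors that arise from a subpopulation of alpha cells after loss of the receptor.

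The libraries of homozygous islets, tumors A, B and C, and heterozygous islets held 34101553, 10508498, 22893238, 22161240 and 22174810 UMIs. Cluster 2.1 cells held 14217425 of them, with a median of 14650.5 per cell (range 2086 to 40612) and of 2828 genes per cell. Cells of cluster 2.2 had medians of 13582 UMIs and 2361 genes, heterozygous alpha cells of 10002.5 UMIs, and endothelial cells of the homozygous library of 2061 UMIs. The median share of mitochondrial UMIs was 0.696% in cluster 2.1, 0.511% in cluster 2.2 and 0.618% in heterozygous alpha cells. No cell name was shared between libraries. Transcripts of 4 Y-linked genes made up 88.6 of every 1000000 UMIs in cluster 2.1 and 61.7 in cluster 2.2, and were abundant in tumor C (146.5) and heterozygous islets (68.9), while tumors A and B instead held Xist at 1470 and 1730 in the same unit. The sexes of the tumor libraries therefore differed, and those of the 2 islet libraries did not.

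Levels are UMIs of the gene in every 1000000 UMIs summed over the cells of a group (CPM). No UMI of Gcgr, the knocked-out receptor gene, was found in cluster 2.1, which by a limit of 3 counts allows up to 0.211 CPM. The other alpha cells and the typed non-alpha cells also held none. Tumors A, B and C held 0, 1 and 3 UMIs, while heterozygous alpha cells held 9 (2.77 CPM, 1.27 to 5.26). All 15 alpha cell markers had UMIs in cluster 2.1. They summed to 434700 CPM, against 319900 in other alpha cells and 27270 in typed non-alpha cells. Gcg, by which the authors typed the cells, made up 350500 CPM of the sum in cluster 2.1, and Ttr 79790. The list also holds the 6 genes that mark the cluster, so its sum is no separate support for the label. Of markers of non-endocrine types, 8 endothelial markers summed to 29.0 CPM in cluster 2.1 against 12920 in endothelial cells, and 9 stellate markers to 24.1 CPM against 23320 in stellate cells. Beta cell markers summed to 12230 CPM, compared with 10230 in other alpha cells and 8168 in endothelial cells of the library. Of the 12 beta cell markers 10 had UMIs in cluster 2.1, and of the 7 delta cell markers 5. Ductal markers (6 of 7 with UMIs) summed to 995.5 CPM in cluster 2.1, 918 in other alpha cells and 47.7 in endothelial cells, and Spp1 made up 663 of the 995.5 CPM in cluster 2.1.

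The 6 genes that mark the cluster were Gcg, Slc38a5, Dapl1, Gfra3, Vgf and Sct. Gcg, the glucagon precursor gene, took 35.0% of all UMIs in cluster 2.1 (350500 CPM). It stood at 283100 CPM in other alpha cells, 20570 in typed non-alpha cells and 338800 in heterozygous alpha cells. The ratio of Gcg over other alpha cells was 1.24, but 0.921 with hormone transcripts, Gcg among them, left out of the totals. Which of these alpha cell groups held more Gcg therefore depends on the totals used. Slc38a5 stood at 1088 CPM (1071 to 1105) in cluster 2.1. It stood at 195 CPM in cluster 2.2, at 44.2 in beta cells, 46.1 in delta cells and 28.3 in endothelial cells of the same library, and at 96.4 (86.0 to 107.7) in heterozygous alpha cells. Tumors A, B and C held it at 1160, 1831 and 1620 CPM. Cluster 2.1 was thus 5.64 times the other alpha cells (5.35 to 5.95) and 11.3 times heterozygous alpha cells (10.1 to 12.7), with a level near that of tumor A.

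Dapl1, which encodes a death-associated protein-like protein, stood at 1738 CPM in cluster 2.1, against 377 in cluster 2.2 and 147 in heterozygous alpha cells. The 3 tumors spread around it, at 815, 1363 and 3113 CPM. Vgf, which encodes a precursor of neuroendocrine peptides stored in secretory granules, stood at 175 CPM in cluster 2.1 (168 to 182), 46.9 in cluster 2.2 and 12.9 in heterozygous alpha cells (9.32 to 17.5). The tumors held 333, 457 and 203 CPM of Vgf, all above cluster 2.1. Sct, the gene of the gut hormone secretin, stood at 72.0 CPM in cluster 2.1 (67.6 to 76.5), 13.0 in cluster 2.2 and 100, 85.9 and 148 in the tumors. Heterozygous alpha cells held 5 UMIs of Sct in all (1.54 CPM, 0.50 to 3.59). Gfra3, which encodes the co-receptor for the neurotrophic factor artemin, followed another order: 72.5 CPM in cluster 2.1, 10.5 in cluster 2.2, and 47.7 (40.5 to 55.9) in heterozygous alpha cells. It was 7.03 times the other alpha cells (5.61 to 8.92) but only 1.52 times heterozygous alpha cells (1.28 to 1.81).

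**Figure D1:**
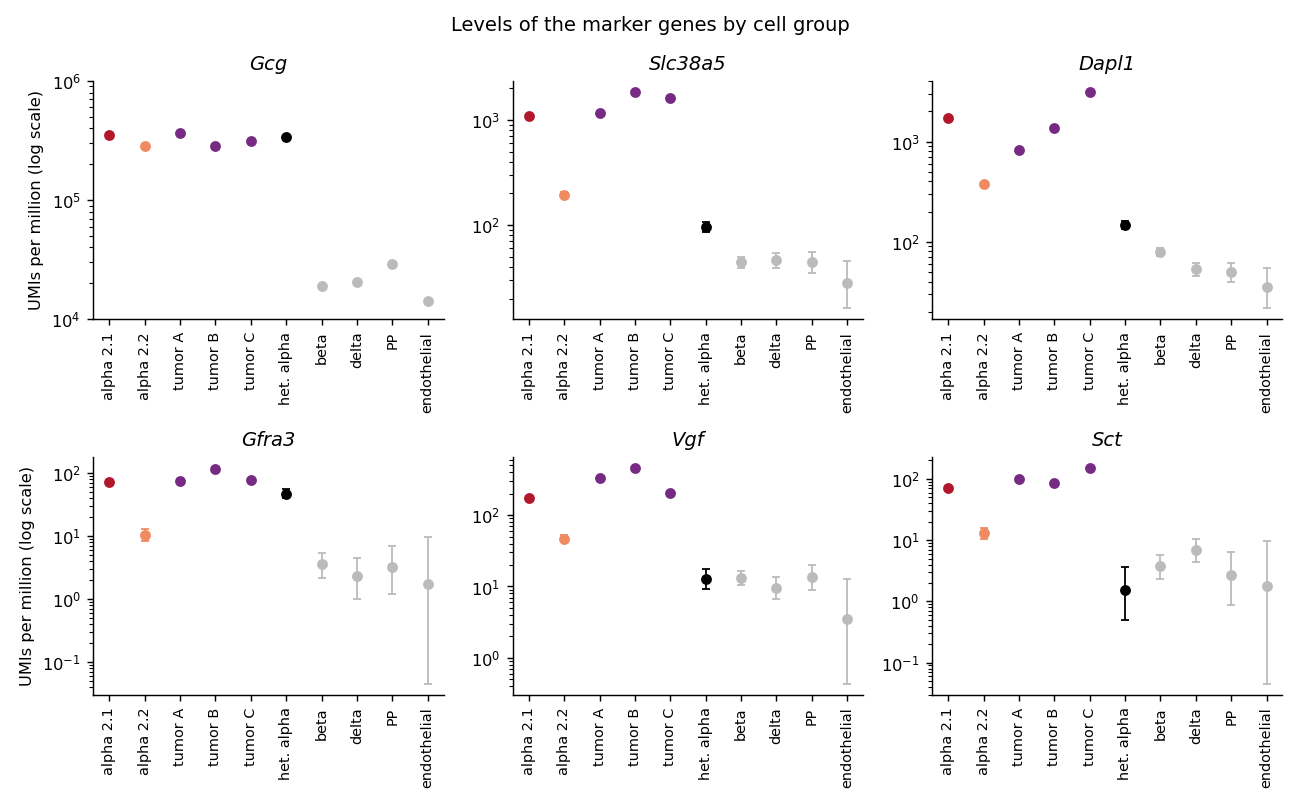
Level of each marker gene (CPM, log scale) in the summed cells of each group, with exact Poisson intervals that cover counting error only. Slc38a5, Dapl1, Vgf and Sct lie high in cluster 2.1 and the 3 tumor libraries and lower in cluster 2.2 and heterozygous alpha cells, while Gfra3 in heterozygous alpha cells (47.7) lies nearer to cluster 2.1 (72.5) than to cluster 2.2 (10.5).

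Windows of 250 bases upstream of the RefSeq transcription start (build GRCm38.p6) were read for 4 of these genes and are shown because they lie before the starts of markers of the cluster. Capitals mark matches, on either strand, to 5 short motifs: a FOXA-type site (TGTTTAC), an E-box of the NEUROD1 type (CATCTG), the cyclic AMP response element (TGACGTCA), a GC box (GGGCGG) and a TATA box (TATAAA). The windows run 5′ to 3′ along the gene, at chrX:8271131-8271380 (plus strand) for Slc38a5, chr2:59484403-59484652 (plus) for Dapl1, chr7:141279134-141279383 (minus) for Sct and chr2:62483654-62483903 (minus) for Gcg. The annotated Sct gene reaches 141279174, so the 3′ end of its window, with the TATA box, lies inside the annotated gene. Distances in Sct are counted from the 3′ end of this window.
Slc38a5: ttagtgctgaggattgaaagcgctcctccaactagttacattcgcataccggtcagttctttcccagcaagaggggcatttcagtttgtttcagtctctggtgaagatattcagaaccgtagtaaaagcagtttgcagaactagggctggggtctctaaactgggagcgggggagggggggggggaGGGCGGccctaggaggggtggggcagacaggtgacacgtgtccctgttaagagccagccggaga
Dapl1: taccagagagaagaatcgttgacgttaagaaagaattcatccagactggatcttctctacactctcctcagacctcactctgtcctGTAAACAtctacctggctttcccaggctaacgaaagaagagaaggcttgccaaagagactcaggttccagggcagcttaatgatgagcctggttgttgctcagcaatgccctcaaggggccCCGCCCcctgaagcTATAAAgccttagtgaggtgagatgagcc
Sct: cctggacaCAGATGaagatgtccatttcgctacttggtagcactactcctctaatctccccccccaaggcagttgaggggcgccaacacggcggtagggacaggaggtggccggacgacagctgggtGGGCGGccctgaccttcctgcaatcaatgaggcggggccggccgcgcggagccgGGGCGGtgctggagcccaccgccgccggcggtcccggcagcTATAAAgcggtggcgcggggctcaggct
Gcg: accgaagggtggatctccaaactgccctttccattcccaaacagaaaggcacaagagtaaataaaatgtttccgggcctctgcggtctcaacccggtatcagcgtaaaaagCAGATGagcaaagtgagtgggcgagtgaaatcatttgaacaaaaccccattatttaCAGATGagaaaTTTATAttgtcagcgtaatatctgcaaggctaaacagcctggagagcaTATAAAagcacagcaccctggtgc
A TATA box lay 29 bases upstream of the start in Dapl1, 28 in Sct and at 72 and 24 in Gcg, and none of these letters were in the Slc38a5 window, where a GC box lay 64 bases upstream. Other GC boxes lay 43 bases upstream in Dapl1 and 123 and 69 bases upstream in Sct. Distances are to the first base of the match. The E-box was found in Sct (242 bases upstream) and at 139 and 83 bases upstream in Gcg, and the FOXA-type letters in Dapl1 (164 bases upstream). Of the 43 genes that were 2-fold higher in cluster 2.1 than in other alpha cells, 29 had windows in the RefSeq table (38 windows). The FOXA-type letters were in 13.2% of those windows (5, of which 2 belong to overlapping Tmsb15 genes) and in 3.17% of all 32851 windows. The other shares were 50% and 32.7% for the GC box, 26.3% and 12.4% for the TATA box, 5.26% and 14.4% for the E-box, and 2.63% and 1.55% for the cyclic AMP response element. All 43 genes reached 50 CPM, while the 32851 windows were not limited to genes at that level. Shares among all genes at 50 CPM were not counted, so these shares do not set the 43 apart from them. A match of letters does not show binding, and the 5 motifs do not overlap one another in these 4 windows.

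The cells differed in how many of these markers they showed. Each cell was thinned to 5000 UMIs by random draws so that depth would not set the result, which left out 42 of the 948 cells. Of the 906 kept, 86.1% (83.7 to 88.3, exact Clopper-Pearson) held a Slc38a5 UMI, compared with 43.5% (39.1 to 47.9) of cluster 2.2 cells and 22.2% (17.3 to 27.8) of heterozygous alpha cells. The tumors had 88.1%, 97.4% and 97.2%. Beta cells, set beside them as a type not defined by this gene, had 18.9% in the homozygous library and 1.32% in the heterozygous one, with median depths before thinning of 10854 and 26414.5 UMIs. Without thinning the share in cluster 2.1 was 93.7%, and 38.0% in beta cells of that library. For Dapl1 the thinned share was 92.6% in cluster 2.1, 62.4% in cluster 2.2 and 27.6% in beta cells. Vgf was found in 50.3%, 17.9% and 7.31% of these cells, Gfra3 in 29.1%, 5.26% and 1.18%, and Sct in 24.3%, 5.85% and 2.83%.

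Of Slc38a5, Dapl1, Gfra3, Vgf and Sct, the median thinned cell of cluster 2.1 showed 3, as did that of each tumor library, and the median cell of cluster 2.2 and of heterozygous alpha cells showed 1. At least 3 of the 5 were found in 63.8% of cluster 2.1 cells, in 68.8%, 89.4% and 82.6% of the cells of tumors A, B and C, in 13.3% of cluster 2.2 cells and in 3.83% of heterozygous alpha cells. All 5 were found in 47 cluster 2.1 cells (5.19%). Cells overlapped between the groups: 7.02% of cluster 2.2 cells and 2.30% of heterozygous alpha cells held at least 4 thinned Slc38a5 UMIs, the median of cluster 2.1, against 53.5%, 80.0% and 77.9% of tumor cells.

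The comparison with the other alpha cells shows what set cluster 2.1 apart within 1 library. Because the authors made the clusters from these same cells, all values are a description. Among 1569 genes with 50 CPM or more in 1 of the 2 groups, 43 (2.74%) were at least 2-fold higher and 6 (0.382%) at least 2-fold lower in cluster 2.1. The median gene was 1.26 times its level in other alpha cells (log2 ratio 0.33), and 8 hormone transcripts took 45.0% of the UMIs of cluster 2.1 and 59.1% of those of other alpha cells. With these hormones left out of the totals every ratio is multiplied by 0.744, the median log2 ratio is -0.10, and 22 genes are 2-fold higher and 19 lower. All 22 are among the 43 above, and the 6 are among the 19.

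**Figure D2:**
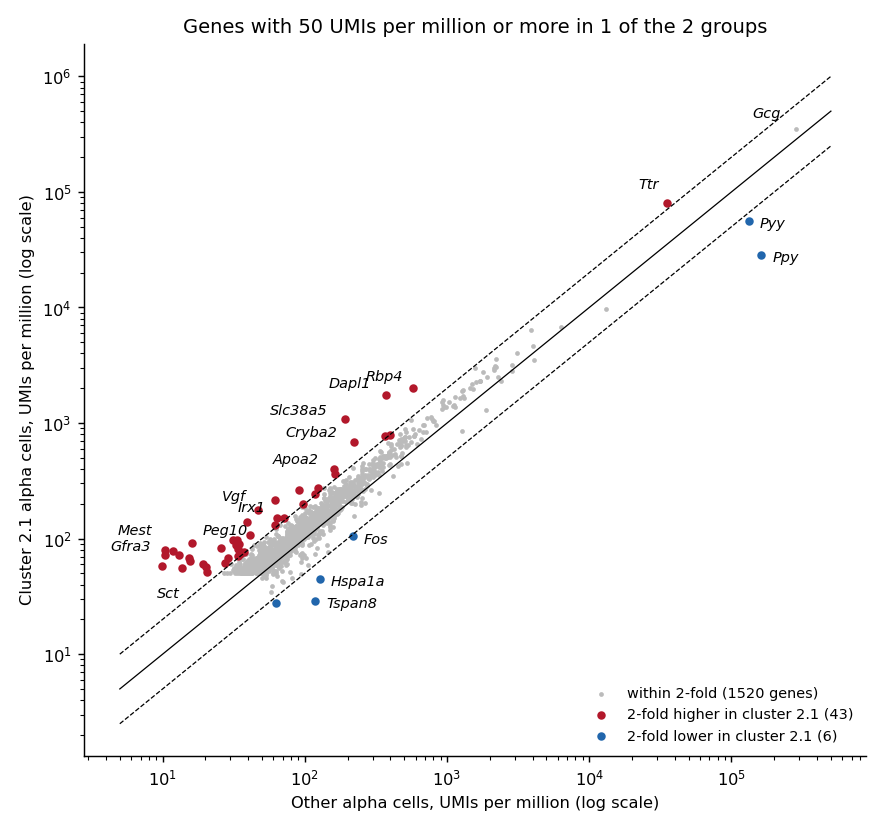
Level of each gene in cluster 2.1 (y axis) against other alpha cells (x axis), both in CPM on log scales, for the 1569 genes with 50 or more in 1 group; the solid line marks equal levels and dashed lines mark 2-fold. The 43 higher genes, in red, include Slc38a5, Dapl1 and Ttr, the 6 lower ones, in blue, include Ppy and Pyy, and the gray cloud lies slightly above the solid line, at a median ratio of 1.26.

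The largest ratio over other alpha cells was that of Mest, an imprinted gene expressed from the paternal allele, at 80.3 CPM in cluster 2.1 and 10.3 in other alpha cells (ratio 7.79, 6.22 to 9.87). Of the imprinted genes, 7 reached 50 CPM and 3 were 2-fold higher, with Peg10, a retrotransposon-derived gene, at 92.5 against 16.0 CPM (5.79) and Grb10, an adapter of growth factor receptors, at 74.3 against 35.1 CPM (2.12). Leaving the hormones out of the totals gives 5.80 for Mest, 4.31 for Peg10 and 1.58 for Grb10, so Grb10 is then within 2-fold. Ttyh1, a chloride channel family gene of neural cells, stood at 77.7 against 11.8 CPM (6.57). Cav1, which encodes the coat protein of caveolae, stood at 57.7 against 9.93 CPM (5.81), with an endothelial level of 387 CPM.

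Several of the higher genes were also plentiful in delta cells of the same library, the somatostatin cells of the islet. Cidea, a gene of lipid droplet fusion, stood at 64.1 CPM in cluster 2.1, 15.6 in other alpha cells and 64.3 in delta cells. Mest stood at 80.3, 10.3 and 133 CPM in the same order. Delta cells reached or passed cluster 2.1 for 8 of the 43 genes, beta cells for 3 and endothelial cells for 6. The share of all genes that did so was not counted for any type, so whether these counts are high or low is not known. The defining delta hormone Sst took 0.319% of UMIs in cluster 2.1, 0.286% in other alpha cells and 21.4% in delta cells.

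Genes of plasma carrier proteins were higher in cluster 2.1 as well. Rbp4, the retinol carrier of plasma, stood at 2014 CPM in cluster 2.1, against 576 in other alpha cells (3.50, 3.39 to 3.61), and at 4129 CPM in delta cells. Ttr, the thyroxine carrier that travels with it and a long-known product of alpha cells, stood at 79790 against 35320 CPM (2.26), and Apoa2, an apolipoprotein of high-density lipoprotein, at 398 against 160 CPM (2.49). These were 3 of 7 genes of the carrier and apolipoprotein list that reached 50 CPM, and no member was 2-fold lower. With hormones out of the totals Rbp4 remains past 2-fold (2.602), while Ttr is at 1.68 and Apoa2 at 1.85.

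Among 17 genes of secretory granule proteins that reached 50 CPM, Vgf (3.75), Cryba2 (3.08) and Slc30a8 (2.21) were 2-fold higher and none was lower. The shares over all 1569 genes were 2.74% higher and 0.382% lower. Cryba2, a crystallin family gene of neuroendocrine cells, stood at 681 against 221 CPM, and Slc30a8, the zinc transporter of islet hormone granules, at 275 against 124 CPM. Of the 7 amino acid transporters that reached 50 CPM, Slc38a5 alone was past 2-fold. Among receptors, the Gfra3 transcript was the 1 of 2 that was higher. Of 11 alpha cell transcription factors at this level, 2 were 2-fold higher, among them Irx1 (152 against 63.8 CPM, 2.38), an alpha cell homeobox gene. The ratio of Irx1 with hormones out of the totals is 1.77, below 2-fold. Ccnd1, which encodes the G1 cyclin D1, stood at 68.6 against 28.8 CPM (2.38), with 219 CPM in endothelial cells, and B2m, the light chain of MHC class I, at 132 against 61.6 CPM (2.15), with 4117 CPM in endothelial cells. With hormones out of the totals, Ccnd1 (1.77), B2m (1.597) and Slc30a8 (1.64) are within 2-fold too.

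The 6 genes lower in cluster 2.1 included Ppy, Pyy, Tspan8, Hspa1a and Fos. Ppy, the pancreatic polypeptide gene, stood at 28690 CPM in cluster 2.1, against 162200 in other alpha cells (ratio 0.177), 542000 in PP cells and 10590 in endothelial cells of the library. Pyy, the gene of peptide YY, stood at 55900 against 132700 CPM (0.421), with 5506 CPM in endothelial cells. Tspan8, a tetraspanin gene, stood at 29.1 against 118 CPM (0.246) and at 348 CPM in PP cells. PP markers as a whole (5 genes, all with UMIs) summed to 84680 CPM in cluster 2.1, 295000 in other alpha cells and 642700 in PP cells, and their part in the other ratios was not tested.

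The inducible heat shock gene Hspa1a stood at 44.5 CPM in cluster 2.1 and 127 in other alpha cells (0.351), and the immediate early gene Fos at 104 against 219 CPM (0.478, but 0.542 by the mean over cells). Near them but within 2-fold were Jun, the AP-1 partner of Fos (76.2 against 145.7 CPM, 0.523), the metallothionein gene Mt1 (49.7 against 93.8 CPM, 0.529), the neuronal gene Stmn3 (45.3 against 81.5 CPM, 0.556) and the folate receptor gene Folr1 (59.1 against 104.5 CPM, 0.565). All 4 of these fall below 0.5 with hormones out of the totals, from 0.389 for Jun to 0.421 for Folr1. The median mitochondrial share was higher in cluster 2.1 (0.696% against 0.508% in other alpha cells), and its part in these ratios was not tested.

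Large gene groups differed little from the median gene. Of 50 ribosomal protein genes at 50 CPM none was 2-fold higher or lower, and their median log2 ratio was 0.09 above that of all genes. None of 29 nuclear genes of oxidative phosphorylation (0.12), 16 of the unfolded protein response (-0.13), 15 translation factors (0.04) and 9 of regulated exocytosis (-0.03) passed 2-fold either. Among lists with 3 or more genes at 50 CPM, those with higher relative medians were the plasma carriers (0.55), G1 cyclins and CDK inhibitors (0.49; 5 genes, of which Ccnd1 was higher), imprinted genes (0.41), antigen presentation (0.34; 4 genes, of which B2m was higher), amino acid transporters (0.34) and alpha cell transcription factors (0.28). The lowest were the immediate early genes (-1.01; 4 genes) and the heat shock chaperones (-0.47; 4 genes). No gene of the cell cycle list, the cholesterol list, the neuroendocrine tumor suppressor list or the list of beta and delta cell transcription factors reached 50 CPM in either group.

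**Figure D3:**
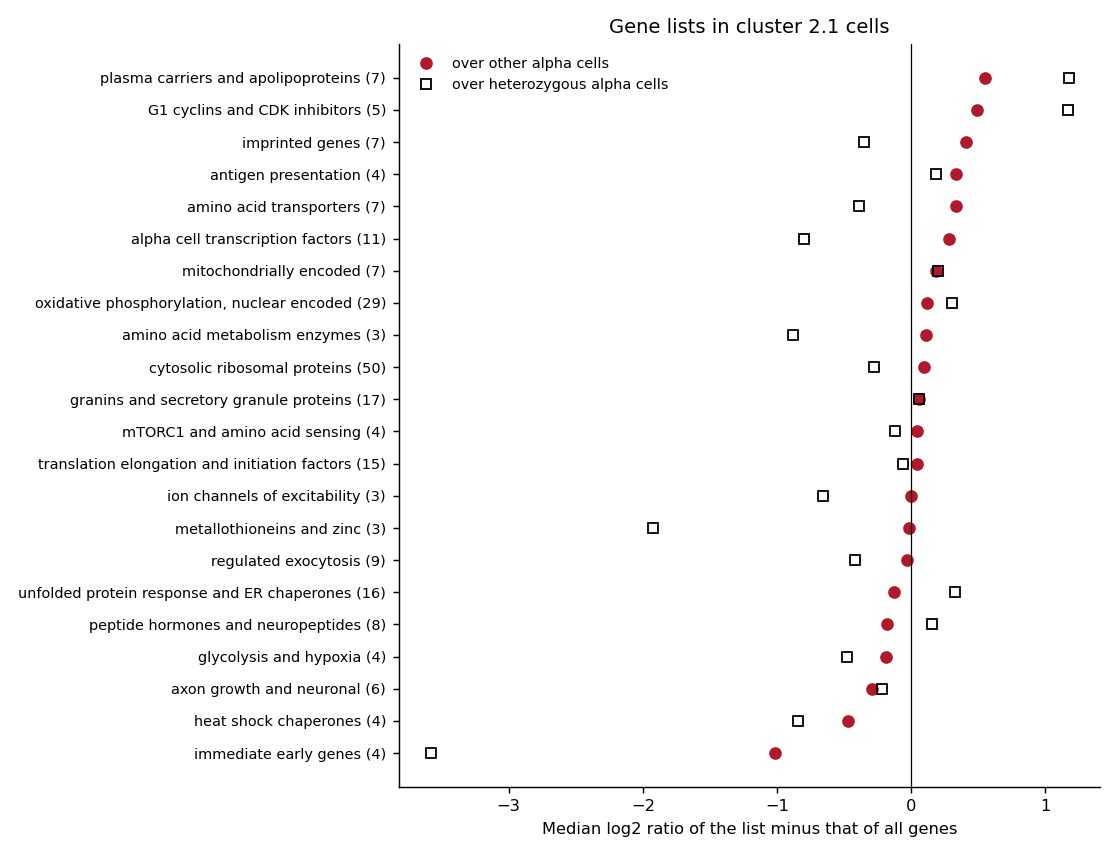
Median log2 ratio of each gene list minus that of all genes, for cluster 2.1 over other alpha cells (filled circles) and over heterozygous alpha cells (open squares); the number of list members with 50 CPM or more in the first comparison is in brackets. Lists with 3 or more such genes are shown, and the immediate early genes lie lowest in both comparisons (-1.01 and -3.58).

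Cluster 2.1 was not uniform. After thinning, 772 genes averaged 0.5 UMIs or more per cell, with a median variance over mean of 1.14 (1 is expected of counting alone), and 56 genes had 2 or more. The 10 most variable genes were Pyy (164), Ppy (152), Ttr (110), Gcg (76.7), Iapp (75.6), the nuclear RNA Malat1 (27.8), Ins1 (23.1), the apolipoprotein gene Apoe (17.8), Ins2 (17.4) and Dapl1 (14.2). In the middle 50% of cells Pyy ran from 104 to 381.75 of 5000 UMIs, Ppy from 66 to 144.75, Ttr from 222 to 521.75 and Gcg from 1511.5 to 1996.75. Iapp, the beta cell hormone amylin, had a middle range of 5 to 11 UMIs but a maximum of 440. The 9 cells with the most Iapp held 23.5% of its UMIs, and the 9 with the most Apoe held 37.6%. Of 196 UMIs of Ghrl, the ghrelin gene of epsilon cells, 116 (59.2%) came from 1 cell, so the level of 13.8 CPM in cluster 2.1, against 0.126 CPM (1 UMI) in other alpha cells, rests on few cells.

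Per cell, cluster 2.1 overlapped the other alpha cells in Gcg, Pyy and Ppy. The median cluster 2.1 cell held 1788.5 Gcg UMIs of 5000, 358.5 of Ttr, 211 of Pyy and 89.5 of Ppy. The median cluster 2.2 cell held 1519 of Gcg, 142 of Ttr, 624 of Pyy and 637 of Ppy, and the median heterozygous alpha cell 1727, 223, 52 and 11. The lowest 10% of cluster 2.1 cells had 54 Ppy UMIs or fewer and the highest 10% had 277 or more, while the lowest 10% of cluster 2.2 cells had 94 or fewer. Endothelial cells, which should lack this hormone, held 10590 CPM of Ppy.

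**Figure D4:**
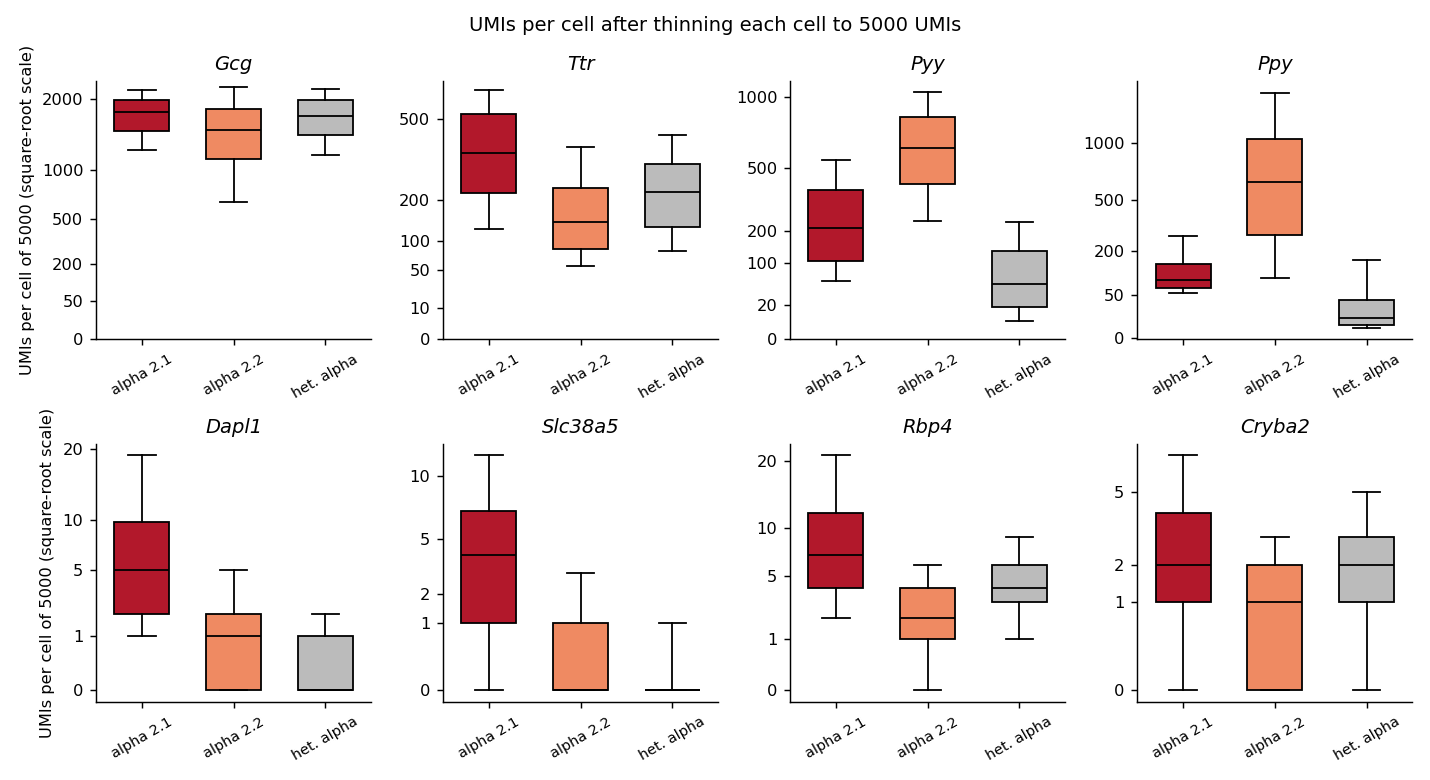
UMIs per cell of 8 genes after thinning every cell to 5000 UMIs, on a square-root scale, in 906 cluster 2.1 cells, 513 cluster 2.2 cells and 261 heterozygous alpha cells. Boxes span the quartiles with the median, and whiskers the 10th and 90th percentiles: Gcg overlaps throughout, Ppy and Pyy lie lower in cluster 2.1 (medians 89.5 and 211) than in cluster 2.2 (637 and 624), and Ttr, Dapl1, Slc38a5 and Rbp4 lie higher.

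Across the 906 cells, the genes most like Slc38a5 by Spearman correlation of thinned UMIs were Ttr (0.37), Ndufa1, a subunit of respiratory complex I (0.37), Tmem27, a partner of amino acid transporters in kidney (0.34), Apoa2 (0.32), Dapl1 (0.30), Gnas (0.29), Tmed3 (0.29) and Rbp4 (0.28). Those most opposed were Pcsk2, the convertase that releases glucagon (-0.33), Pcsk1n, an inhibitor of the related convertase (-0.32), the host RNA Snhg8 (-0.28) and Fos (-0.26), followed by Rps21, Resp18 and Rps19 (-0.23 each). In all 27 genes reached 0.2 in size. The cells share 1 library, and several of these genes also varied with the depth of the cell (Ttr 0.25, Pcsk2 -0.29). Gcg itself correlated most with Ppy (-0.45), Ins2 (-0.36), Nenf (-0.31) and Rplp1 (-0.31) among negative genes, and above 0.2 only with Resp18 (0.22). The UMIs of each thinned cell sum to the same number, which all of these correlations share.

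Set against all typed non-alpha cells of the library, cluster 2.1 had 249 of 1809 genes (13.8%) at least 2-fold higher and 149 (8.24%) lower. With the hormones out of the totals, which multiplies each ratio by 0.734, the split is 72 higher and 214 lower. The higher genes with the surest ratios, ranked by the interval bound nearest 1, were Dapl1 (27.1), Slc38a5 (25.1), Gfra3 (22.8), Irx1 (18.3), Pdk4 (17.6), Gcg (17.0), Sct (16.2), Vgf (15.1), Wnk3 (13.5), Higd1a (13.0), Ttr (13.0) and Tmsb15b2 (11.3). Pdk4, a kinase that slows pyruvate oxidation, stood at 62.1 CPM in cluster 2.1, 27.3 in other alpha cells and 1.60 in beta cells. Higd1a, a mitochondrial gene of the hypoxia response, stood at 129, 91.2 and 5.70 CPM in the same order, so it was higher in alpha cells of both kinds than in beta cells. Endothelial cells held it at 45.9 CPM and stellate cells at 36.8. Wnk3, a kinase of ion transport, stood at 88.3, 33.1 and 6.23 CPM.

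Alpha cell transcription factors followed: 5 of 12 were 2-fold higher than in non-alpha cells (Irx1, Irx2 and Isl1 among them), as were 38 of 50 ribosomal protein genes, and no member of either list was lower. The shares over all 1809 genes were 13.8% higher and 8.24% lower. The 12 transcription factors had a median log2 ratio of 0.23 (-0.21 with hormones out of the totals), near that of all genes (0.29 and -0.16). The median log2 ratio of the ribosomal protein genes was 1.12, or 0.67 with hormones out of the totals. The lower genes with the surest ratios belonged to other types, with the insulin genes Ins1 (0.0268) and Ins2 (0.0370) and the macrophage lysozyme gene Lyz2 (0.0195). The others were Ly6c1, Igfbp3, Nrp1, Timp3 and Ly6a (0.0195 to 0.0305), which were highest in endothelial cells. Stellate cells also held Ly6a (1300 CPM), Igfbp3 (1184), Nrp1 (710.5) and Timp3 (300). Lyz2 had 1.83 CPM in cluster 2.1 and 93.7 in all non-alpha cells, but against beta, delta and PP cells alone its ratio was 2.22.

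Against alpha cells of heterozygous islets, cluster 2.1 had 81 of 1983 genes (4.08%) at least 2-fold higher and 148 (7.46%) lower, with a median log2 ratio of -0.11 (89 and 132 genes with hormones out of the totals). The higher genes with the surest ratios were Ctrb1, Cidea, Eef1a2, Sct, Ttyh1, Mest, Spp1 and Dapl1. Eef1a2, a translation elongation factor of neurons and muscle, stood at 408 CPM in cluster 2.1, against 13.2 in heterozygous alpha cells (30.8, 22.8 to 42.6). It stood at 217 CPM in other alpha cells and at 440, 475 and 423 in the tumors. Spp1, which encodes osteopontin, stood at 663 CPM in cluster 2.1, 618 in other alpha cells and 49.0 in heterozygous alpha cells (13.5), so it was 1.07 times its level in other alpha cells. Cidea had 2 UMIs in heterozygous alpha cells, which gave a ratio of 104 (28.7 to 860.5). Ctrb1, a chymotrypsinogen gene of acinar cells, had 1 UMI there and 73.9 CPM in cluster 2.1, but endothelial cells of the same islets held it at 244 CPM, and 12 acinar markers summed to 243 CPM in cluster 2.1 and 767 in endothelial cells.

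The lower genes were led by immediate early genes, of which 10 of 11 at 50 CPM were at least 2-fold lower in cluster 2.1 than in heterozygous alpha cells, with a relative median log2 ratio of -3.58. Fos stood at 104 against 1411 CPM (0.0741, 0.0698 to 0.0785), Junb at 27.1 against 349.5 CPM (0.0775), Egr1 at 20.1 against 393 CPM (0.0510), Ier2 at 8.09 against 154 CPM (0.0524) and Atf3 at 2.67 against 63.7 CPM (0.0419). The tumors did not share these low levels for Junb (450, 582 and 659 CPM) and Egr1 (468, 269 and 369 CPM). Other immediate early genes differed. Fos (355, 216 and 241 CPM) and Jun (243, 227 and 238 CPM) were at least 2-fold lower in all 3 tumors than in heterozygous alpha cells, where Jun stood at 694 CPM. Ier2 (47.6, 30.6 and 114 CPM) and Atf3 (140, 47.0 and 94.4 CPM) were not past 2-fold in all 3. The atypical kinase gene Mapk15 (4.36 against 109.9 CPM), the metallothionein gene Mt2 (13.2 against 197 CPM) and the potassium channel subunit gene Dpp10 (3.52 against 55.4 CPM) made up the rest of the 8 lower genes with the surest ratios, which do not include Jun. Fos in other cells of the 2 libraries stood at 204 CPM in beta cells of homozygous islets against 324 in those of heterozygous islets, and at 1353 against 1387 CPM in endothelial cells. The part of library preparation in these values was not tested.

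By list, 4 of 11 amino acid transporters were lower than in heterozygous alpha cells (Slc38a2, Slc7a8, Slc7a2 and Slc3a2) and Slc38a5 was the 1 that was higher. Over all 1983 genes of this comparison, 4.08% were higher and 7.46% lower, and lists with 1 gene past 2-fold are not set apart from that. Of 14 alpha cell transcription factors, Irx1 was higher (152 against 69.9 CPM) and 4 were lower, Meis2 (34.5 against 90.5 CPM), Foxa2 (30.7 against 66.8 CPM) and St18 (28.5 against 58.2 CPM) among them, with a relative median of -0.80. Cluster 2.1 had 4 of 7 plasma carrier genes 2-fold higher (Spp1, Apoa2, Serpine2 and Rbp4) and 3 of 5 G1 cyclins and CDK inhibitors (Ccng1, Cdkn1a and Ccnd2). Of 17 granule protein genes Vgf was higher, and Pcsk1n and Pcsk2 were lower. Oat, which makes glutamate from ornithine, was the 1 of 6 amino acid metabolism genes that was higher, while 3 were lower, Arg1 and Ddc among them. Pyy was 2.85 times and Ppy 1.77 times its level in heterozygous alpha cells, where the highest 10% of cells held 162 or more Ppy UMIs of 5000 and the median cell 11. Endothelial cells, which should lack these hormones, had 5506 CPM of Pyy in homozygous islets and 435.5 in heterozygous ones, and 10590 and 631 CPM of Ppy.

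The tumor libraries hold no cluster 2.1 cell and show the same genes in separate libraries, of which all cells were used. The authors' total per cell, used to recover UMIs, counts exonic UMIs in tumors and all UMIs in islets. Tumors A and B held Xist where the islets held Y-linked transcripts. The part of either in these values was not tested. Against heterozygous alpha cells, 186 of 2580 genes (7.21%) were at least 2-fold higher in all 3 tumor libraries and 46 (1.78%) lower in all 3. Of the 43 genes higher in cluster 2.1 than in other alpha cells, 41 could be measured there, and 16 (39.0%) were higher in all 3 tumors and none lower. Their median log2 ratio was 1.22, compared with 0.23 for all genes. The 16 included Mest, Ttyh1, Cav1, Peg10, Slc38a5, Sct, Dapl1, Vgf, Fxyd3, Hist1h4h, Ids, Agt, Apoa2, H2afj and Gmds. Of the 5 measured genes that were lower in cluster 2.1, Fos, Hspa1a and Ppy (60.0%) were lower in all 3 tumors and none was higher. With hormones out of the totals, 119 of all genes are higher and 84 lower in all 3 tumors, and of the 41 genes 13 (31.7%) are higher and 1 is lower.

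The order of levels varied between genes. Ttyh1 stood at 77.7 CPM in cluster 2.1 and at 200, 151 and 150 CPM in the tumors, all higher. Cidea, at 64.1 CPM in cluster 2.1, stood at 34.2, 34.0 and 22.7 CPM in the tumors and was too low there for a call. Ppy stood at 28690 CPM in cluster 2.1 and at 2305, 273 and 534 CPM in the tumors, and Pyy at 55900 CPM against 3403, 10770 and 1463. Irx1, at 152 CPM in cluster 2.1, stood at 123, 219 and 118.5 CPM in the tumors. Tumors A, B and C reached or passed cluster 2.1 for 25, 31 and 25 of the 43 genes. The share of all genes that did so was not counted, so these counts do not set the 43 apart from other genes.

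**Figure D5:**
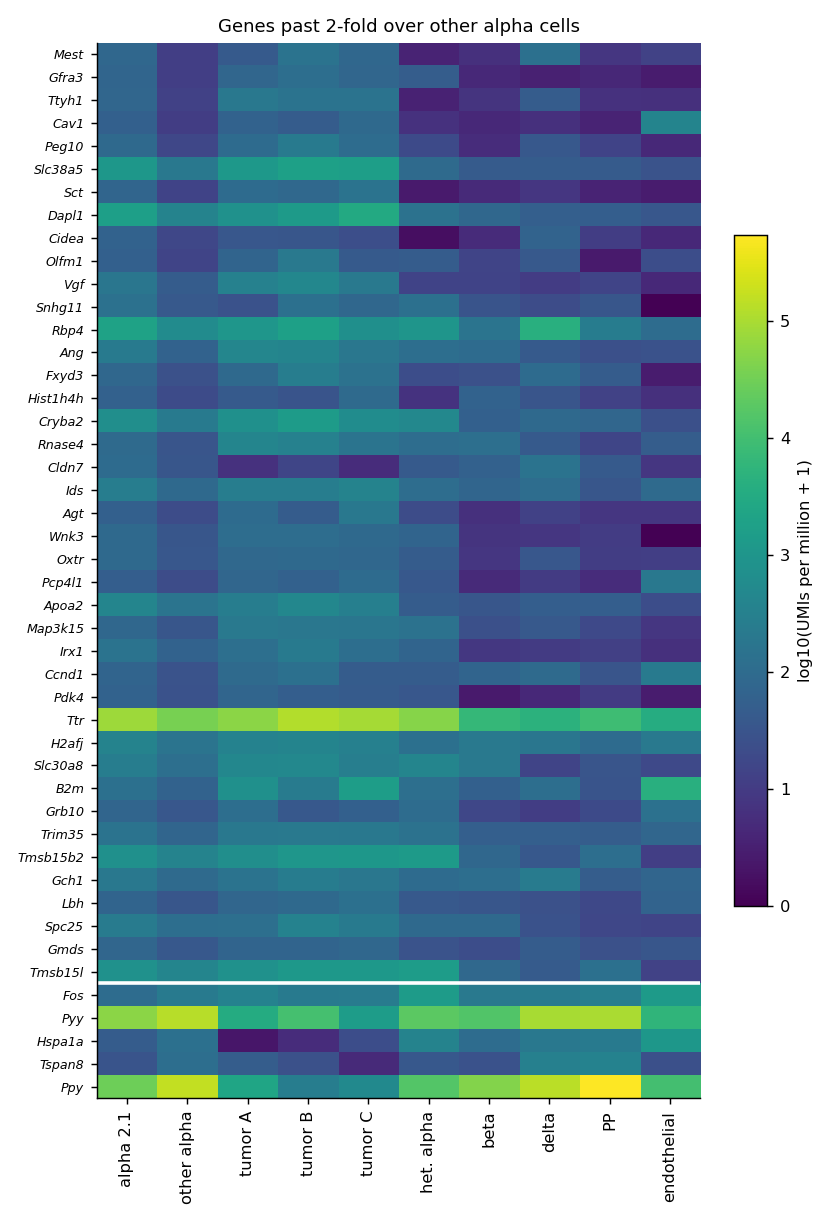
Level of genes higher (above the white line) and lower in cluster 2.1 than in other alpha cells by 2-fold, as log10 of CPM plus 1, in 10 cell groups. Columns of the 3 tumor libraries resemble cluster 2.1 for genes such as Slc38a5, Sct and Ttyh1, while Mest, Cidea and Rbp4 are also high in delta cells, and Cav1 and B2m in endothelial cells.

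The 43 genes were spread over the genome, with 7 on chromosome 6 (8.54% of the 82 genes of that chromosome at 50 CPM) and 6 on chromosome X (9.23% of 65), against 2.83% of all 1521 placed genes. Chromosomes 18 (8.33% of 36) and 14 (8.16% of 49) had similar shares. On chromosome 1, Pcp4l1 and Apoa2 lay 25.3 kb apart (GRCm38). Ang and Rnase4 on chromosome 14, and Tmsb15b2 and Tmsb15l on chromosome X, overlap in the annotation, so the reads of each pair may be shared and each pair may be 1 signal. Hspa1a and Hist1h4h have near-identical relatives, and their counts are uncertain for the same reason.

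Few cells of the cluster were cycling by transcript. After thinning, 7 of 906 cluster 2.1 cells (0.773%, 0.311 to 1.59) held UMIs of 2 or more of 11 cycle genes. In cluster 2.2 none of 513 cells did, and in heterozygous alpha cells 2 of 261 did (0.766%, 0.0929 to 2.74). The tumors had 7.04%, 5.17% and 7.20%. Intervals over cells cover 1 library each, and the difference between tumors and cluster 2.1 was not tested.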

How the data were processed

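The authors deposited normalized UMI signal values per cell and gene with cell types and clusters, and a total UMI count per cell, per the file headers. Tools named in the submitters' processing notes were CASAVA 1.8, bcl2fastq 2.17 and GSNAP, with genome build GRCm38, in roles not given in the sources used here. Each value times its cell's total count, divided by a table constant (9936 for islets, 12219 for tumors), gave whole UMIs for all values above 0 within 0.01. By the headers, the authors' totals cover all UMIs in islets and exonic UMIs in tumors. They served only to recover whole UMIs, and levels are per recovered UMIs. Recovered UMIs were a median of 1.0141 (heterozygous), 1.0196 (homozygous) and 1.0275 (tumor) times these totals. Whether islet and tumor values count the same kinds of UMIs is not known, so levels between these tables are less comparable. The recovered UMIs were summed per group and given per 1000000. Of 36529 gene rows, 31049 (85.0%) matched RefSeq.

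Ratios carry exact 95% conditional binomial intervals, and levels exact Poisson intervals. Neither covers variation between animals. A gene was called at 2-fold among genes with 50 CPM in 1 group. The tumor libraries, whose names in the table match no single sample title, are called A, B and C. No cell was removed, and doublets were not removed in the main values: Scrublet (scanpy 1.11.5, expected rate 0.06) called 1 cell of the homozygous library. That is far below the expected rate among its 2844 cells. Removing that cell could hardly change a ratio within this library, so this alternative is no check for doublets. Named genes had an interval bound past 1.5-fold, ranked by that bound (12 up and 12 down over other alpha cells, 12 and 8 over non-alpha cells, 8 and 8 over heterozygous alpha cells), with predicted symbols left out, plus up to 3 list members each way past 2-fold and the 6 markers. Genes the text adds to these (such as Junb in tumors, Ndufa1 or Sst) are list members, correlation-ranked genes or background checks. The cells, the 28 gene lists, the 14 marker lists and the motifs were chosen with earlier results of these data known. Some genes counted in these comparisons are not reported here by name. Code was checked on simulated data. Python 3.11.15, numpy 2.4.6, scipy 1.17.1 and pandas 2.3.3 were used. Alternatives were hormones out of the totals, other minimum levels, means over cells, thinning, doublets removed and other make-ups of the non-alpha cells.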

Additional observations from a re-analysis of the deposited data

How the results depend on the processing

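Of 224 alternative values for the 32 genes named over other alpha cells none was counted as reversed. Gcg, which was within 2-fold, moved from 1.24 to 0.921 with hormones out of the totals. Of 189 values of called genes, 175 stayed past 2-fold (Apoa2, B2m, Ccnd1, Fos, Grb10, Irx1, Slc30a8 and Ttr were among the others). Removing doublets took out only 1 cell of the homozygous library, so it is no check of ratios within that library. For the 20 genes named over heterozygous alpha cells, 124 of 124 stayed, and Cidea and Sct gave no ratio after thinning because no UMI was left in heterozygous alpha cells. Over non-alpha cells 154 of 160 stayed (the others were of Igfbp3, Ly6a, Ly6c1, Lyz2, Nrp1 and Timp3), and Lyz2 reversed to a ratio of 2.22 against beta, delta and PP cells alone. An alternative that changes only the minimum level cannot move a ratio, and the genes were named for their ratios in these same data. The numbers of values that stayed are therefore no independent check.

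Counts of called genes moved more. With hormones out of the totals, 22 were higher and 19 lower over other alpha cells, 72 higher over non-alpha cells, and 119 higher and 84 lower in all tumors over heterozygous alpha cells. With a 20 CPM minimum, the counts were 91 higher and 11 lower over other alpha cells, 436 lower over non-alpha cells, 155 and 445 over heterozygous alpha cells, and 381 and 134 in tumors. With no minimum (UMIs under 3 set to 3) they were 1226 and 491, 1295 and 3133, 580 and 3620, and 854 and 3153 in that order of comparisons. Over non-alpha cells, 542 genes were lower by the mean over cells, 85 after thinning, 948 with types weighted equally and 56 against beta, delta and PP cells alone. Leaving out 1 tumor library, chosen after seeing the data, gave 190 to 242 higher and 59 to 71 lower genes (71 without tumor A), since fewer libraries have to pass. The share of cluster 2.1 cells with Slc38a5 was 93.7% unthinned and 68.4% at 2000 UMIs.

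No paired analysis was possible because each islet genotype had 1 library and the tumors have no partner. Depth limits genes under 50 CPM, and shares of cells for genes such as Sct and Gfra3 depend on it. Endothelial cells of the homozygous library also held hormone and Slc38a5 transcripts, and how much of the level in other types has the same source was not tested.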

Other observations

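Both Ndufa1 and Tmem27, which correlated with Slc38a5 among cluster 2.1 cells, stood between 1 and 2 times their level in other alpha cells. Ndufa1, a complex I subunit gene on the X chromosome as is Slc38a5, stood at 1056 CPM in cluster 2.1, against 561 in other alpha cells and 331 in heterozygous alpha cells (ratios 1.88 and 3.19), and at 831, 1730 and 964 CPM in the tumors. Tmem27, also X-linked, stood at 2854 CPM in cluster 2.1, 2128 in other alpha cells and 1537 in heterozygous alpha cells, and at 4449, 2966 and 2750 CPM in the tumors. Serpine2, which encodes a secreted protease inhibitor, stood at 158 CPM in cluster 2.1, 85.9 in other alpha cells and 20.3 in heterozygous alpha cells, with 231 CPM in endothelial cells of the same islets.

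Cluster 2.1 had 110 CPM of Cdkn1a, the p21 inhibitor of the cell cycle, against 62.4 in other alpha cells and 38.5 in heterozygous alpha cells, and 73.2 CPM of Ccng1, a target of p53, against 38.5 and 25.6. Endothelial cells of the library held 500 CPM of Cdkn1a and 31.8 CPM of Ccng1. Slc7a2, the cationic amino acid transporter, stood at 87.7 CPM in cluster 2.1, 43.9 in other alpha cells (ratio 2.00, just under the threshold) and 295 in heterozygous alpha cells. Oxtr, the oxytocin receptor gene, stood at 90.7 CPM in cluster 2.1 against 34.3 in other alpha cells (ratio 2.64). These genes were picked after their values were seen.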
